A study of Mus musculus with 2 samples.

Results

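The 10 genes described here encode the TGF-beta ligands (*Tgfb1*, *Tgfb2*, *Tgfb3*), their receptors (*Tgfbr1*, *Tgfbr2*, *Tgfbr3*) and the latent TGF-beta binding proteins (*Ltbp1*, *Ltbp2*, *Ltbp3*, *Ltbp4*). They were chosen by gene symbol, and they and the gene lists below were chosen with earlier results of these data known. All 10 were found among the 22096 symbols of the files. All 10 were also among the 12096 genes called measured, that is, with at least 1 FPKM in either library. RNA was sequenced from embryonic mouse forelimbs at stage E13.5, on a mixed strain background. Cells carrying the ScxGFP reporter, which is driven by regulatory sequence of the tendon transcription factor gene *Scx*, were sorted by flow cytometry into a ScxGFP-positive population and a ScxGFP-negative population, each from a pool of 6 forelimbs (3 pairs). Each population gave 1 library, so no difference below has a replicate check or a test, and differences are described by size only. As a check of the labels, *Scx* stood at 134 FPKM in the ScxGFP-positive library and at 1.69 FPKM in the ScxGFP-negative library. FPKM scales a transcript's fragments by its length and by the library size, so levels may be compared between genes.

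TGF-beta ligands are made as precursors that are cut by furin-like proteases and stay folded inside their own propeptide. That latent complex is usually linked to a latent binding protein, which ties it to fibrillin microfibrils and fibronectin, and active ligand is released by integrins, proteases or thrombospondin. Free ligand binds the type II receptor (*Tgfbr2*), which phosphorylates the type I receptor (*Tgfbr1*), and the signal passes to Smad2 and Smad3. Betaglycan (*Tgfbr3*) presents ligand, TGF-beta 2 above all, to the signalling receptors. In the mouse limb, tendon progenitors need this pathway: embryos without both *Tgfb2* and *Tgfb3*, or without *Tgfbr2* in limb mesenchyme, lose most tendons.

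The coding sequences of the 3 ligands are shown at the sites that govern latency, because the 3 genes differed in opposite directions between the libraries. The first set, with capitals on the codons for arginine, glycine and aspartate that integrins bind in the propeptide, comes from *Tgfb1* (codon 244 onward, exon 5 of 7, GRCm38 chr7:25697133-25697159, plus strand) and *Tgfb3* (codon 261 onward, exon 5 of 7, chr12:86062156-86062182, minus strand). The *Tgfb2* coding sequence held 0 in-frame runs of these codons. The second set, with capitals on the 4 codons of the furin-type cleavage site just before the mature ligand, comes from exon 5 of 7 in *Tgfb1* (chr7:25697226-25697255, plus strand), *Tgfb2* (chr1:186630627-186630656, minus strand) and *Tgfb3* (chr12:86062045-86062074, minus strand). Sequences are those of the GENCODE transcripts paired with the RefSeq accessions in the deposited files, on GRCm38.
Tgfb1 integrin site: cccaaacgtCGGGGCGACctgggcacc
Tgfb3 integrin site: gaccatggcCGTGGAGACctggggcgt
Tgfb1 cleavage site: cacagctcaCGGCACCGGAGAgccctggat
Tgfb2 cleavage site: tccagccggCGGAAGAAGCGCgctttggat
Tgfb3 cleavage site: ggcagtcagAGGAAGAAGAGGgccctggac
The mature ligand was encoded by the last 336 coding bases (112 codons) of each gene. Over these bases *Tgfb1* and *Tgfb3* were 73.5% identical, *Tgfb2* and *Tgfb3* 70.8%, and *Tgfb1* and *Tgfb2* 68.8%. The longest run of identical bases shared by any pair of the 3 whole transcripts was 15, so the 3 ligand genes are not near-identical copies among which reads would be divided.

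In ScxGFP-positive cells 4 of the 10 genes were higher by 2-fold or more (*Tgfb3*, *Tgfbr3*, *Ltbp1* and *Ltbp4*), 1 was at least 2-fold lower (*Tgfb1*) and 5 were within 2-fold. Folds and log2 ratios are of FPKM + 1, positive over negative, which understates differences of genes at low levels. Among all 12096 measured genes 4.03% were higher by as much and 9.98% were lower. The median log2 ratio of the 10 genes was 0.74 and that of all measured genes −0.27, and 8 of the 10 lay above the latter. *Tgfbr3* and *Ltbp4* stood just past the 2-fold line (2.09-fold and 2.03-fold), and the nearest below it were *Tgfbr2* (1.73-fold) and *Ltbp3* (1.62-fold). The count of 4 depended on the setting. It was 6 with the median ratio of measured genes set to 1 (where 5.92% of measured genes were higher), which added *Tgfbr2* and *Ltbp3*, and 1 with a pseudocount of 5 (1.84%), which left *Ltbp1* and put *Tgfb3* at a log2 ratio of 0.92. With a pseudocount of 0.1 (14.7% of measured genes lower) *Ltbp2* joined *Tgfb1*.

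**Figure D1:**
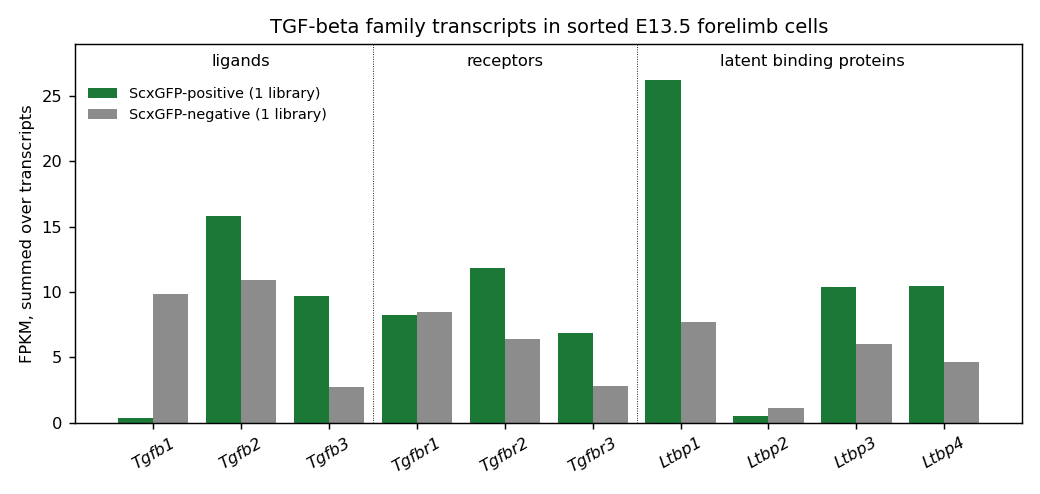
FPKM (vertical axis, linear from 0) of the 10 genes in the ScxGFP-positive library (green, left bar of each pair) and the ScxGFP-negative library (grey, right bar), 1 library each and so without error bars. The bars of *Tgfb1* are at 0.370 and 9.81, while those of *Ltbp1*, the tallest green bar, are at 26.2 and 7.67.

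*Tgfb1*, whose product is the ligand best known from blood, immune and vessel cells, was the member furthest from equality. It stood at 0.370 FPKM in the ScxGFP-positive library and 9.81 FPKM in the ScxGFP-negative library (NM_011577, mm9 chromosome 7, 26472021 to 26490015). The positive level was thus 3.77% of the negative level. Its log2 ratio was −2.98, number 145 from the lowest of the 12096 measured genes. The positive value rests on about 1771 aligned bases and the negative value on about 49079, so the low level is the less precise of the pair. In sorted pools like these, fewer cells of a type and less RNA per cell cannot be told apart.

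Markers of blood, vessel, epidermal and glial cells were lower in the same library as *Tgfb1*. For the counts that follow, 9.98% of all measured genes were at least 2-fold lower in ScxGFP-positive cells. All 6 macrophage and leukocyte markers were at least 2-fold lower, with a summed level of 6.97 FPKM in ScxGFP-positive cells and 214 FPKM in ScxGFP-negative cells (3.26%). The 6 endothelial markers summed to 2.03 FPKM in positive cells and 45.8 FPKM in negative cells (4.44%), and the 6 epidermal markers to 10.2 and 308 FPKM (3.31%), each marker at least 2-fold lower. The 5 platelet and megakaryocyte markers summed to 2.12 FPKM in positive and 23.8 FPKM in negative cells, most of it *Pf4*, which encodes a platelet chemokine (1.33 and 21.6 FPKM) and was the 1 measured gene of that list; *Gp1bb*, which encodes a platelet glycoprotein, was near-equal (0.663 and 0.810 FPKM), and *Gp9* was listed at 0 in positive cells (0.348 FPKM in negative cells). The 4 mast cell markers, among which *Mcpt4* was listed at 0 in positive cells and 3 were at least 2-fold lower, summed to 4.49 and 337 FPKM. All 5 erythroid markers were lower by that much, with sums of 155 and 6413 FPKM, as were 5 of 6 Schwann cell and nerve markers, with sums of 3.02 and 33.6 FPKM. The *Tgfb1* share of 3.77% lies among these shares, and their part in the *Tgfb1* difference was not tested.

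*Tgfb3* differed the other way. It was at 9.68 FPKM in ScxGFP-positive cells and at 2.74 FPKM in ScxGFP-negative cells (NM_009368, mm9 chromosome 12, 87397693 to 87419991), a log2 ratio of 1.51 and a rank of 255 from the highest. *Tgfb2* was the most abundant ligand in both libraries, at 15.9 FPKM in positive cells and 11.0 FPKM in negative cells (NM_009367, mm9 chromosome 1, 188447065 to 188529871). Its log2 ratio of 0.50 was within 2-fold and lay 0.76 above the median of all measured genes.

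Summed over the 3 genes, ligand transcripts were at nearly the same level in both libraries, 25.9 FPKM in positive cells and 23.5 FPKM in negative cells, while their makeup differed. *Tgfb1* made up 1.43% of the sum in ScxGFP-positive cells and 41.7% in ScxGFP-negative cells. *Tgfb3* made up 37.4% in positive and 11.7% in negative cells, and *Tgfb2* 61.2% and 46.6%. There were 26.1 *Tgfb3* transcripts for each *Tgfb1* transcript in positive cells and 0.280 in negative cells, on the FPKM scale. Such shares compare genes inside a library, so no scaling between libraries alters them. The ligand with 0 integrin-binding codon runs, *Tgfb2*, thus held the largest share in both libraries.

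**Figure D2:**
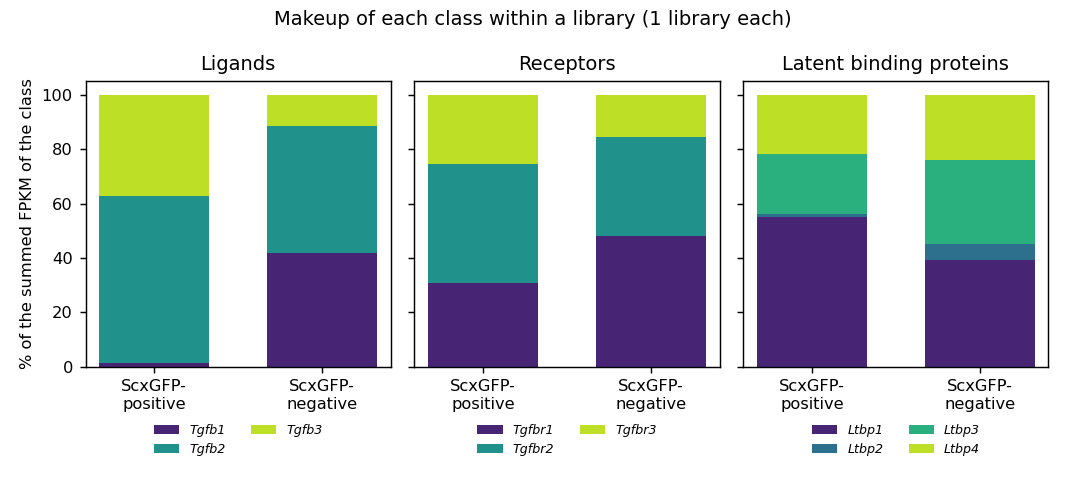
Share of each gene (vertical axis, percent) in the summed FPKM of the ligands, the receptors and the latent binding proteins, in the ScxGFP-positive library (left bar) and the ScxGFP-negative library (right bar), 1 library each. *Tgfb1* fills 1.43% of the positive ligand bar and 41.7% of the negative bar, and *Ltbp1* fills 55.1% of the positive and 39.3% of the negative bar of latent binding proteins.

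Among the receptors, the signalling type I receptor gene had near-equal FPKM in both libraries, and the type II receptor and betaglycan genes were higher in ScxGFP-positive cells by differing amounts. *Tgfbr1* stood at 8.28 FPKM in positive cells and 8.47 FPKM in negative cells (NM_009370, mm9 chromosome 4, 47366177 to 47427796). Its log2 ratio of −0.03 lay 0.24 above the median of all measured genes and was 0.40 after rescaling to equal FPKM sums, so its sign depends on the scaling. *Tgfbr3* stood at 6.88 FPKM in positive cells and 2.77 FPKM in negative cells (NM_011578, mm9 chromosome 5, 107535589 to 107718614), a log2 ratio of 1.06. *Tgfbr2* stood at 11.8 and 6.42 FPKM, a log2 ratio of 0.79, within 2-fold. In the positive library *Tgfbr2* was the most abundant receptor gene, with 1.43 times the FPKM of *Tgfbr1*; in the negative library *Tgfbr1* was, and *Tgfbr2* reached 0.758 of its FPKM.

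The files list *Tgfbr2* in 2 forms (both mm9 chromosome 9, 115996813 to 116084481) that differ by a 75-base coding exon, exon 2 of 8 in the longer form. The exon adds 25 codons to the extracellular part of the receptor near its start (GRCm38 chr9:116158271-116158345, minus strand) and is printed here in capitals with 12 coding bases on each side, since the forms did not differ alike between the libraries.
Tgfbr2 exon of the longer form: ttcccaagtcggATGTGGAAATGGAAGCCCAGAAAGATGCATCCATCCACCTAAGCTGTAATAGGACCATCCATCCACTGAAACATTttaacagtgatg
The form with this exon (NM_009371) was estimated at 7.75 FPKM in ScxGFP-positive cells and 3.45 FPKM in ScxGFP-negative cells, a log2 ratio of 0.97. The form without it (NM_029575) was estimated at 4.06 and 2.97 FPKM, a log2 ratio of 0.35. The longer form thus made up 65.6% of *Tgfbr2* in positive cells and 53.8% in negative cells. The forms share all but these 75 coding bases, so few fragments can separate them and their split is a model estimate whose error is not in the files.

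Latent binding proteins were the class with the widest difference in summed level, 47.6 FPKM in ScxGFP-positive cells and 19.5 FPKM in ScxGFP-negative cells. Set against the ligand sum of the same library, this was 1.84 FPKM of latent binding protein per FPKM of ligand in positive cells and 0.830 in negative cells. *Ltbp1*, which binds all 3 latent ligands, was the most abundant of the 10 genes in the positive library, at 26.2 FPKM against 7.67 FPKM in the negative library (mm9 chromosome 17, 75404869 to 75791109). Its log2 ratio of 1.65 had rank 213 from the highest, and it alone of the 4 higher members stayed past 2-fold under each of the 6 alternatives applied to single genes.

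*Ltbp4*, which encodes a binding protein with a preference for latent TGF-beta 1 and a part in elastic fibre assembly, was at 10.5 FPKM in ScxGFP-positive cells and at 4.66 FPKM in ScxGFP-negative cells, a log2 ratio of 1.02. *Ltbp3* stood at 10.4 and 6.04 FPKM (NM_008520, mm9 chromosome 19, 5740904 to 5758532), a log2 ratio of 0.69 that lay 0.96 above the median of all measured genes. *Ltbp2*, whose product binds microfibrils but not latent TGF-beta, was the only latent binding protein gene with a lower level in positive cells, at 0.505 and 1.14 FPKM (NM_013589, mm9 chromosome 12, 86124162 to 86217445). Its log2 ratio of −0.51 was within 2-fold, and it was the least abundant member in the negative library.

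*Ltbp1* is listed in a long form and a short form that begin at separate starts. The long form (NM_019919) was estimated at 20.1 FPKM in ScxGFP-positive cells and 6.90 FPKM in ScxGFP-negative cells, a log2 ratio of 1.42. The short form (NM_206958, mm9 chromosome 17, 75578222 to 75791109) was estimated at 6.16 and 0.772 FPKM, a log2 ratio of 2.01, the highest of the 13 transcripts listed for the 10 genes. The short form made up 23.5% of *Ltbp1* in positive cells and 10.1% in negative cells. The forms share their last 4128 coding bases. Of the rest, 1008 coding bases belong to the long form alone and 54 to the short form alone, so the short form has little coding sequence of its own. Untranslated bases of the forms were not compared, and the split is a model estimate of unknown error.

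The 250 bases before each *Ltbp1* start are printed because the forms have their own starts, 173242 bases apart on GRCm38 in the GENCODE annotation. They come from RefSeq on GRCm38.p6, plus strand, at chr17:75005279-75005528 before the long form and chr17:75178531-75178780 before the short form. The windows end at the RefSeq starts, and the GENCODE starts lie 39 bases (long form) and 29 bases (short form) further downstream. Capitals mark matches on either strand to CANNTG, the E-box read by basic helix-loop-helix factors, the class to which scleraxis belongs, and to CAGAC, the core that Smad3 and Smad4 can bind. No match to either overlaps a match to the other.
Ltbp1 long form, upstream bases: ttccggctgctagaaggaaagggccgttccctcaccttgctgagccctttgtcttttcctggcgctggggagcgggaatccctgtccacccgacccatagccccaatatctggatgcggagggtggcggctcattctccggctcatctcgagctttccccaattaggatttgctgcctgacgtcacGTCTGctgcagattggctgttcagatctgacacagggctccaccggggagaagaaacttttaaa
Ltbp1 short form, upstream bases: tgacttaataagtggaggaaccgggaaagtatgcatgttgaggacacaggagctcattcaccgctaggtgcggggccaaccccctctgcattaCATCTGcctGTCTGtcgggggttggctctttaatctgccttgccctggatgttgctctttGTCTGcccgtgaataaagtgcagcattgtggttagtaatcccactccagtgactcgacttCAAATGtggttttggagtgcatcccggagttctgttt
CANNTG matched at 0 places before the long form and at 2 places before the short form, and 66.2% of all 32851 upstream windows of this length held it. CAGAC matched at 1 place before the long form and at 2 places before the short form, and 42.2% of all windows held it. The window of the long form had 56.8% G and C with 12 CG pairs, that of the short form 50.8% with 7, and the medians over all windows were 52.4% and 6. These matches describe the letters of the windows only.

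*Ltbp4* also has 2 starts. The form from the upstream start (NM_175641, mm9 chromosome 7, 28090160 to 28122631) was estimated at 2.87 FPKM in ScxGFP-positive cells and 0.806 FPKM in ScxGFP-negative cells. The form from the downstream start (NM_001113549, mm9 chromosome 7, 28090160 to 28118667) was estimated at 7.60 and 3.85 FPKM. The upstream form made up 27.4% of *Ltbp4* in positive cells and 17.3% in negative cells. Both forms end at the same position, and their split is a model estimate of unknown error. In the negative library the upstream form was given only about 10208 aligned bases.

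**Figure D3:**
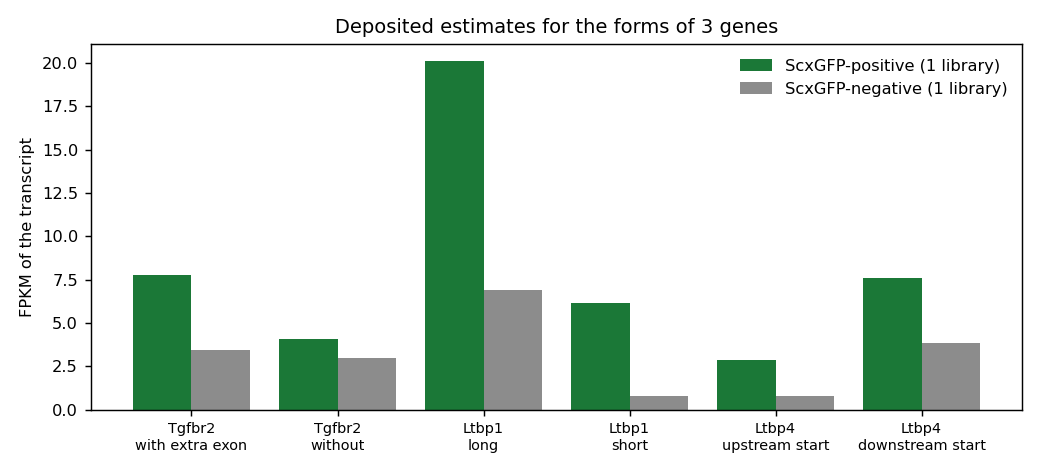
FPKM (vertical axis, linear from 0) estimated for each listed form of *Tgfbr2*, *Ltbp1* and *Ltbp4* in the ScxGFP-positive library (green, left) and the ScxGFP-negative library (grey, right), 1 library each. The short *Ltbp1* form is at 6.16 and 0.772 FPKM and the long form at 20.1 and 6.90 FPKM.

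Markers of the sorted lineage and of muscle stood higher in the same library as *Tgfb3*, *Tgfbr3*, *Ltbp1* and *Ltbp4*. The 5 tendon markers summed to 189 FPKM in ScxGFP-positive cells and 6.40 FPKM in ScxGFP-negative cells. In positive cells *Scx* was the most abundant, at 134 FPKM, and *Kera*, which encodes the proteoglycan keratocan, the next (21.4 FPKM, against 0.192 FPKM in negative cells). The sort used a reporter driven by *Scx* regulatory sequence, so the *Scx* part of the sum follows from the sort. Of the 5, 4 were at least 2-fold higher and *Mkx* was within 2-fold (8.97 and 4.36 FPKM). The 6 skeletal muscle markers summed to 151 and 18.4 FPKM, led by the actin gene *Actc1* (107 and 13.6 FPKM) and the slow troponin gene *Tnnt1* (22.8 and 2.18 FPKM), and all 6 were at least 2-fold higher. The 5 pericyte markers summed to 20.1 and 11.0 FPKM, of which 1 of 4 measured passed 2-fold. The 5 cartilage markers summed to 89.2 and 66.7 FPKM and 0 of 4 measured passed 2-fold on the FPKM + 1 scale. Counts of 0 or 1 among 4 are too small to set apart from the 4.03% of all measured genes. *Col2a1*, the main cartilage collagen gene, was at 68.1 and 40.4 FPKM and *Matn1* at 1.43 and 0.301 FPKM. *Acan*, under 1 FPKM in both libraries, was at 0.847 and 0.265 FPKM. The chondrocyte regulator gene *Sox9* was lower in positive cells, at 13.9 and 18.9 FPKM, as was *Col9a1*, at 4.90 and 6.89 FPKM. The part of muscle, pericyte or cartilage cells in the higher levels of the 4 genes was not tested.

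Most genes for the matrix partners of latent complexes had higher transcript levels in ScxGFP-positive cells. Of 8 listed genes for matrix partners and TGF-beta-binding proteoglycans, all measured, 6 exceeded 2-fold in positive cells and 0 exceeded it in negative cells, where 4.03% and 9.98% of all measured genes did so. Their median log2 ratio was 1.73, and *Emilin1* (0.78) and *Bgn* (0.64) were within 2-fold. The fibrillin genes *Fbn2* and *Fbn1*, whose microfibrils anchor latent binding proteins, stood at 65.1 FPKM against 15.0 FPKM and at 23.0 FPKM against 6.63 FPKM, positive cells first. *Fn1*, which encodes fibronectin, stood at 85.3 FPKM in positive cells and 19.6 FPKM in negative cells. The proteoglycan genes *Dcn* (decorin) and *Fmod* (fibromodulin), whose products can bind TGF-beta, stood at 66.2 and 6.42 FPKM and at 11.4 and 2.51 FPKM, log2 ratios of 3.18 and 1.82. Whether this is particular to partners of TGF-beta was not tested.

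Most measured genes that release or hold latent TGF-beta were within 2-fold, as were most genes of the full measured set. Of 14 listed genes 12 were measured, of which 2 were at least 2-fold higher, 1 was lower and 9 were within 2-fold. The median log2 ratio of the 12 was 0.27. In the full measured set the shares past 2-fold were 4.03% (higher) and 9.98% (lower). The count of 1 lower gene among 12 is thus near the background. The 2 higher genes among 12 are a larger share than 4.03%, on a short list. *Thbs1*, which encodes thrombospondin 1, an activator of the latent complex, was at 15.7 FPKM in ScxGFP-positive cells and at 4.31 FPKM in ScxGFP-negative cells. *Lrrc32*, which encodes GARP, a membrane anchor of latent TGF-beta known from regulatory T cells and platelets, stood at 4.53 and 0.964 FPKM. *Lrrc33*, which encodes a related anchor of macrophages and microglia, stood at 0.439 FPKM in positive cells and 8.51 FPKM in negative cells, a log2 ratio of −2.72. The blood, vessel, epidermal and glial markers above differed in the same direction, and their part in the *Lrrc33* difference was not tested. The integrin gene *Itgb8*, which encodes a subunit that binds the integrin site of the propeptide, was at 2.02 and 0.805 FPKM, within 2-fold on the FPKM + 1 scale. *Itgb6*, which encodes the epithelial subunit with that role, was under 1 FPKM in both libraries, and the convertase gene *Furin* stood at 5.54 and 7.78 FPKM.

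Transcripts of the Smad relay downstream of the receptors differed by less than 2-fold, as did most measured genes. All 19 listed Smads, partners and negative regulators were measured, 0 were past 2-fold in either direction, and their log2 ratios ranged from −0.66 to 0.32 with a median of −0.08. With 4.03% of all measured genes past 2-fold higher and 9.98% past 2-fold lower, this count is near the background. The receptor-activated *Smad2* and *Smad3* stood at 9.64 and 11.7 FPKM and at 10.4 and 10.5 FPKM, and the shared partner *Smad4* at 11.4 and 12.0 FPKM, positive cells first. The inhibitory Smad gene *Smad7*, itself induced by the pathway, stood at 2.33 FPKM in positive and 4.18 FPKM in negative cells. *Tgif1*, which encodes a corepressor of Smads, had the largest absolute log2 ratio of the list, −0.66, at 11.4 and 18.5 FPKM.

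Among accessory receptors 3 of 4 were measured. *Eng*, which encodes the endothelial coreceptor endoglin, was at 0.977 FPKM in ScxGFP-positive cells and at 5.38 FPKM in ScxGFP-negative cells, a log2 ratio of −1.69. This is the direction of the endothelial markers and also of the blood, epidermal and glial markers, and their part in it was not tested. *Bambi*, which encodes a decoy receptor without a kinase domain, stood at 0.376 and 2.73 FPKM, a log2 ratio of −1.44. *Cd109*, which encodes an inhibitory coreceptor, was within 2-fold, and the endothelial type I receptor gene *Acvrl1* was under 1 FPKM in both.

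Genes known as TGF-beta targets in fibroblasts did not move together. For scale, 4.03% of the whole measured set lay past 2-fold on the higher side and 9.98% on the lower side. Of 21 listed targets, 17 were measured, 6 were at least 2-fold higher, 1 lower and 10 within 2-fold, with a median log2 ratio of 0.55. The 6 were matrix, crosslinking and contractile genes: *Lox*, which encodes the collagen crosslinking enzyme lysyl oxidase (25.7 FPKM in positive and 2.30 FPKM in negative cells), the smooth muscle actin gene *Acta2* (19.9 and 2.54 FPKM), the collagen genes *Col1a1* (268 and 44.6 FPKM), *Col3a1* (230.0 and 38.2 FPKM) and *Col1a2* (285 and 60.3 FPKM), and *Postn*, which encodes periostin. Among targets in wide use as readouts of signalling, named after their values were seen, *Pmepa1*, a feedback gene, stood at 5.39 and 2.56 FPKM, a log2 ratio of 0.84. *Tgfbi* stood at 15.4 and 18.7 FPKM and *Ctgf* at 1.32 and 2.34 FPKM. *Junb*, an early-response transcription factor gene, was the 1 lower gene, at 0.278 and 1.72 FPKM. The part of muscle or other cell types in the 6 higher targets, *Acta2* among them, was not tested.

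**Figure D4:**
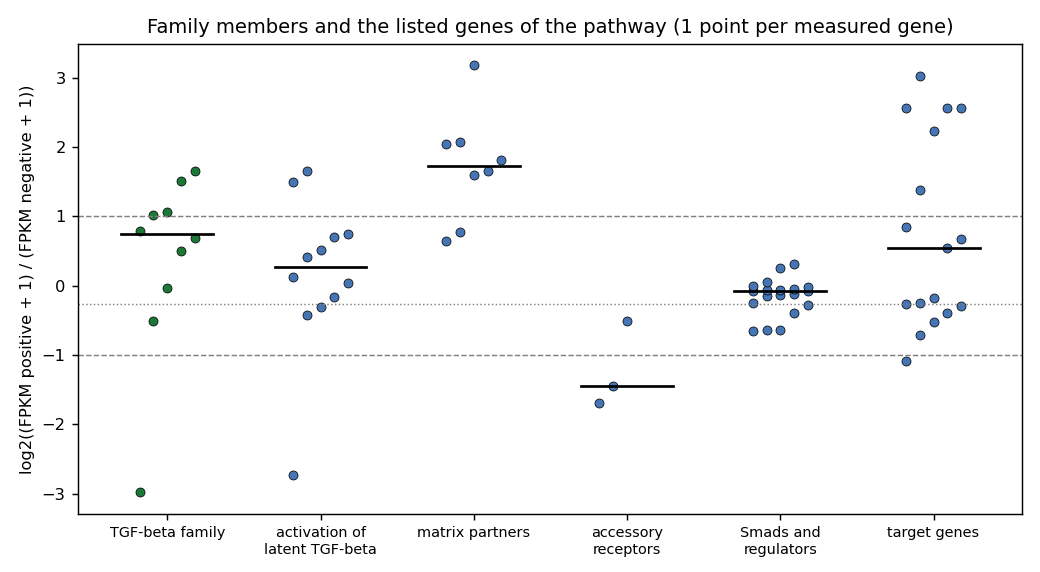
Log2 ratio of FPKM + 1, ScxGFP-positive over ScxGFP-negative (vertical axis), for each measured gene of the TGF-beta family (green) and of 5 lists of the pathway (blue), with a black bar at each list's median. Dashed lines mark 2-fold, the dotted line the median of all measured genes at −0.27. All 19 Smads and regulators lie between the dashed lines, and *Tgfb1* is the lowest point of all lists, at −2.98.

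Taken by level, the 10 genes had different orders in the libraries. In ScxGFP-positive cells *Ltbp1*, *Tgfb2* and *Tgfbr2* were the 3 most abundant and *Tgfb1* the least. In ScxGFP-negative cells *Tgfb2*, *Tgfb1* and *Tgfbr1* were the 3 most abundant and *Ltbp2* the least. Without replicates it cannot be said which neighbours in either order differ beyond the spread between samples.

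**Figure D5:**
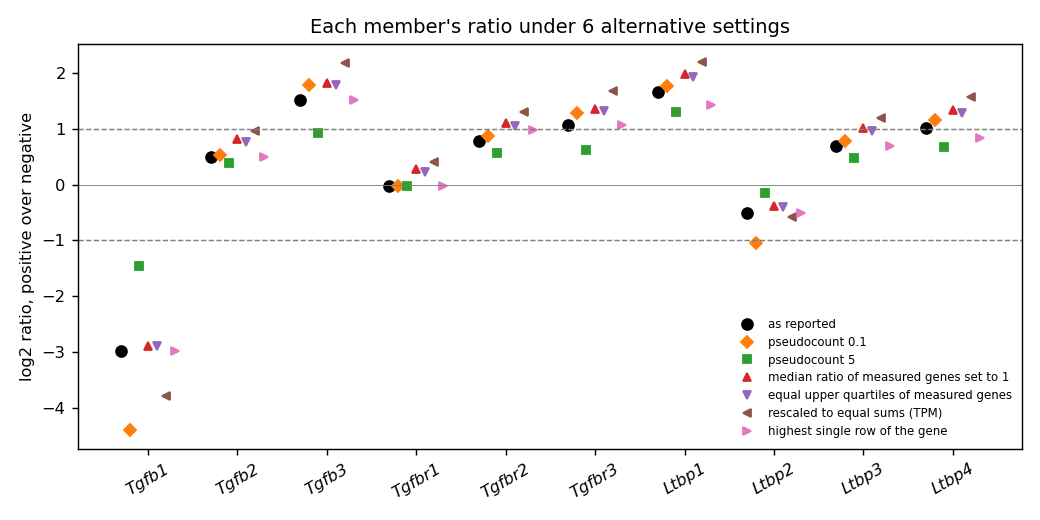
Log2 ratio, ScxGFP-positive over ScxGFP-negative (vertical axis), of each of the 10 genes as reported (black circles) and under 6 alternatives of pseudocount, scaling and transcript choice (coloured symbols), with dashed lines at 2-fold. *Tgfb1* lies between −4.40 and −1.46 and *Ltbp1* between 1.30 and 2.19, while *Tgfb3*, *Tgfbr2*, *Tgfbr3*, *Ltbp3* and *Ltbp4* fall on both sides of the upper line.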

How the data were processed

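The submitters' processing notes name TopHat 1.4.1, Bowtie 0.12.7 and the mouse build mm9; for the abundance estimator no version was found in these sources. Per the labels' protocols, sorted cells were frozen, total RNA was purified on RNeasy micro columns, and NuGEN Ovation v2 chemistry gave the cDNA. The authors' deposited FPKM and coverage (signal over a transcript's bases) are listed per RefSeq transcript, per the file headers. FPKM was added up over the 13 transcripts of the 10 genes, each with status OK in both libraries. Aligned bases are coverage times length. Coverage times length over all transcripts came to 0.687 gigabases in the positive and 0.875 gigabases in the negative library. Read counts are not in the files, so the depth in reads is unknown and no counting interval is given.

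A pseudocount of 1, a minimum of 1 FPKM in either library and a threshold of 2-fold were used, with python 3.11.15 and pandas 2.3.3. The code was run on a copy of the ScxGFP-negative library without added noise, in which well-expressed genes were given set folds. That run checks the code only and says nothing on low values or values near the threshold. Genes of 6 symbols with a failed row were left out. Starts in the files count from 0, so 1 was added. Members, gene lists and rules were chosen with earlier results of these data known. From each pathway list the text names up to 5 genes past 2-fold with the largest absolute ratio, or the largest where none is; other genes of the lists were named after their values were seen. The 2 most abundant genes of each marker list were eligible for naming. Sequences are from GENCODE M21 and RefSeq (GRCm38), never used with mm9 positions. RefSeq upstream windows matched 8 of the 10 genes.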

Additional observations from a re-analysis of the deposited data

How the results depend on the processing

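The 3 summary values were recomputed under 8 alternatives, and the ratio of each gene under 6 of them. The number of genes at least 2-fold lower was 2 with a pseudocount of 0.1, which added *Ltbp2*, and the number at least 2-fold higher was 1 with a pseudocount of 5. The median log2 ratio of the 10 genes was 1.05 with the median ratio of measured genes set to 1, 1.01 with equal upper quartiles and 1.25 with equal FPKM sums. The same scalings put the median of all measured genes at −0.0006, −0.04 and 0.10, so the median of the 10 lay 1.05, 1.05 and 1.14 above it, against 1.01 as reported. *Tgfb1* was past 2-fold lower under all 6 alternatives and *Ltbp1* past 2-fold higher under all 6; *Tgfb3* had 0.92 with a pseudocount of 5 and was past 2-fold under the rest. *Ltbp4* was at 0.83 with its highest transcript alone and 0.68 with a pseudocount of 5. *Tgfbr2* was past 2-fold under 3 scalings (1.05 to 1.29). The pseudocount moves low values most by its construction; other causes were not tested. No paired analysis was possible because each group has 1 library and no result comes from a test; for the same reason no library could be left out. Values near or under 1 FPKM, such as *Tgfb1* in positive cells and *Ltbp2* in both, rest on the least sequence.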

Other observations

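For each member past 2-fold, the 3 measured genes nearest to it in level in both libraries were listed, by the distance between log2(FPKM + 1) values over the 2 libraries. With 2 libraries this likeness describes a pair of levels and no more. Nearest to *Tgfb1* were *Ptprcap*, a leukocyte gene (0.368 FPKM in positive cells and 10.2 FPKM in negative cells), and the epithelial genes *Ppl* (0.364 and 9.42 FPKM) and *Krt19* (0.371 and 9.21 FPKM). Nearest to *Tgfb3* were the T-box gene *Tbx18* (9.75 and 2.72 FPKM), the growth factor gene *Gdf10* (9.62 and 3.05 FPKM) and *Tshz2* (10.1 and 2.45 FPKM). Nearest to *Ltbp1* were the connective tissue transcription factor gene *Osr1* (24.1 and 8.13 FPKM), the lysophosphatidic acid receptor gene *Lpar1* (22.6 and 7.55 FPKM) and the noncoding RNA *Bc1* (23.0 and 8.59 FPKM). *Tgfbr3* lay nearest to *Prrt2*, *Serping1* and *Aebp1*, and *Ltbp4* to *Stra6*, *Tro* and *Gli2*.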
